A study of Homo sapiens with 4 samples.

Results

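The genes described here encode the machinery that assembles antigen receptor genes in lymphocyte precursors, namely the V(D)J recombinase (RAG1 and RAG2), the terminal transferase (DNTT) and 7 factors of classical end joining (LIG4, XRCC4, NHEJ1, DCLRE1C, PRKDC, XRCC5 and XRCC6). They were chosen by name and make up 10 of the 18377 genes with a probe set of their own on the array. Each of the 10 had 1 probe set that carried its symbol alone. The samples were 4 human B-cell precursor acute lymphoblastic leukaemia lines with 1 array of total RNA each. The translocation t(4;11), a rearrangement of the MLL gene (KMT2A), is present in RS4;11 and SEM, here termed the translocation lines, and absent from NALM6 and REH, the lines they were set against. All lines were grown in RPMI medium with 10% fetal bovine serum and received no other treatment named in the labels. Every line is a single established culture, so that any other difference between the lines enters the contrast, and the number of arrays limits the precision.

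In V(D)J recombination, RAG1 and RAG2 together cut DNA beside the gene segments of immunoglobulin and T-cell receptor loci and leave hairpin ends on the coding side. The Ku heterodimer (XRCC5 and XRCC6) holds the broken ends and recruits the kinase DNA-PKcs (PRKDC), which activates the nuclease Artemis (DCLRE1C) to open the hairpins. The terminal transferase adds nucleotides without a template, and LIG4 with its partners XRCC4 and XLF (NHEJ1) seals the joint. The recombinase and the terminal transferase are made in lymphocyte precursors, whereas the end-joining factors act in all cells.

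Values are log2 RMA values from the submitters, in which a difference of 1 is 2-fold. Array medians ran from 6.40 to 6.46 and 25th percentiles from 4.97 to 5.02, so that values near 5 are dim and folds against them are compressed. Of 9 B-cell precursor markers, 7 were measured. PAX5 (11.61 to 11.90) and CD22 (11.10 to 11.65) were bright in every line, while 4 of the 7 (CD79B, VPREB1, IGLL1 and BLNK) spanned 4-fold or more over the lines. All 6 T-cell markers lay between 4.25 and 5.36 in all lines. Since fewer cells with a transcript and less transcript per cell cannot be told apart in bulk RNA, the levels below are those of whole cultures.

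The 10 genes fell apart by how much they varied. RAG1, RAG2, DNTT and LIG4 spanned 4-fold or more over the 4 lines, which 7.56% of all genes did, and NHEJ1 spanned 2.33-fold, so that 5 of 10 reached 2-fold, against 19.3% of all genes. The kinase, Ku, Artemis and XRCC4 genes stayed within 2-fold. In the limma test of the translocation lines against the others, none of the 10 passed at an adjusted p of 0.05 over all genes, where 0.0218% of genes did. At an unadjusted p under 0.05 there were 4, against 9.39% of all genes, with RAG1, DNTT and LIG4 lower (4.79% of all genes) and NHEJ1 higher (4.60%). An exact permutation test of 2 lines against 2 cannot give a p below 0.333.

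**Figure D1:**
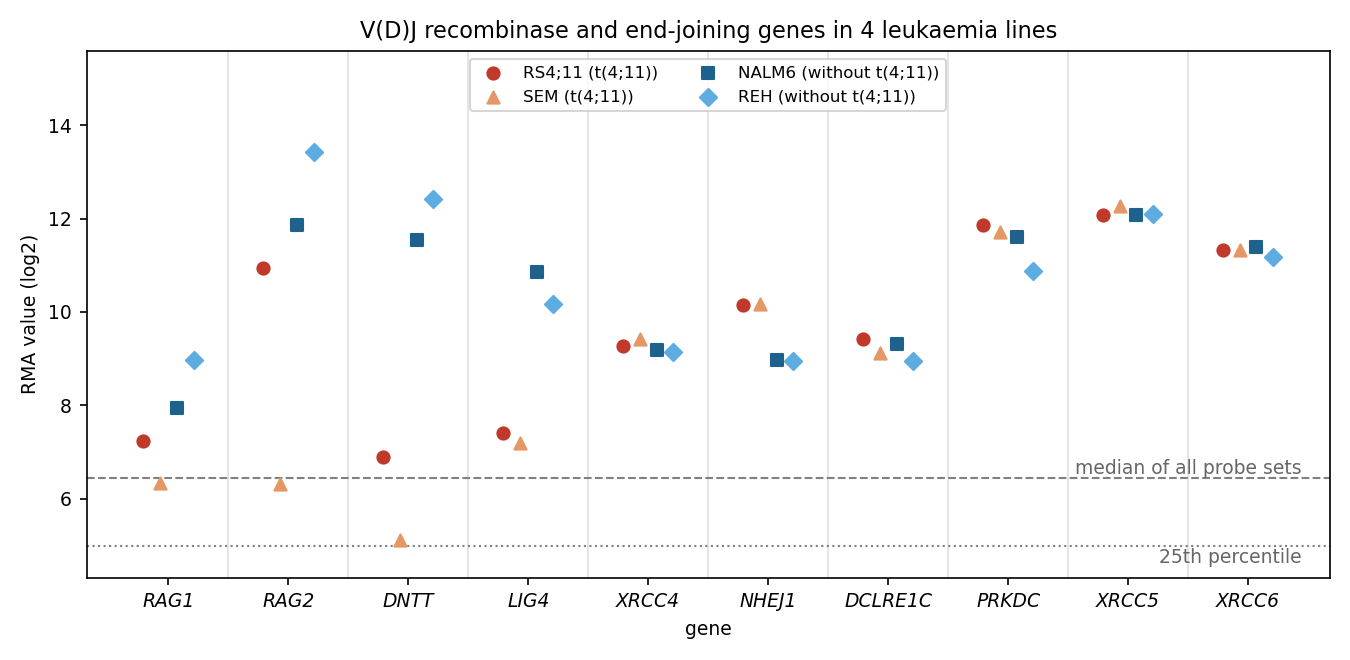
Log2 RMA value (vertical axis) of each of the 10 genes (horizontal axis) in RS4;11 and SEM (with t(4;11)) and NALM6 and REH (without it), 1 array per line; the dashed and dotted lines mark the mean over arrays of the median and of the 25th percentile of all probe sets. The points of RAG2 and DNTT spread over more than 7 log2 units, with SEM lowest, while the 4 points of XRCC5 and of XRCC6 nearly coincide.

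RAG2, the subunit that partners RAG1 and reads histone H3 methylation, was at 10.94 in RS4;11 and 6.31 in SEM, against 11.86 in NALM6 and 13.43 in REH. SEM alone was low, below the median of its array, and RS4;11 minus NALM6 was -0.92, a smaller gap than NALM6 minus REH, which was -1.57. The translocation lines averaged 8.63 ± 3.27 and the lines without it 12.64 ± 1.11 (SD, n = 2 each). The difference of -4.02 had a 95% interval from -9.71 to 1.68 and a limma adjusted p of 0.646. It depended on SEM, at -1.70 without that line and -6.33 without RS4;11.

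RAG1, the catalytic subunit, was at 7.24 in RS4;11 and 6.33 in SEM, against 7.95 in NALM6 and 8.97 in REH. The groups did not overlap, and the order of the lines was that of RAG2. Over the 10 genes, groups did not overlap in 7 (42.8% of all genes), 4 of them lower in the translocation lines (19.8% of all genes) and 3 higher (23.0%). The span was 6.23-fold for RAG1 and 139-fold for RAG2. In SEM both genes, at 6.33 and 6.31, lay below the median of its array (6.46), so that both folds can be compressed. The group difference of RAG1 was -1.68 (SE 0.53, 95% interval -3.28 to -0.07, limma adjusted p = 0.518).

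DNTT, the polymerase that diversifies the joints, was at 6.88 in RS4;11 and 5.11 in SEM, against 11.54 in NALM6 and 12.43 in REH. Both translocation lines were far below both other lines, by at least 4.65, and SEM was close to the 25th percentile of its array (4.99). The difference was -5.99 (SE 0.77, 95% interval -8.32 to -3.66, limma adjusted p = 0.279). Its span of 160-fold exceeded or equalled that of 99.96% of all genes. RS4;11 minus NALM6 was -0.92 for RAG2 and -4.65 for DNTT, while SEM minus NALM6 was -5.54 for RAG2 and -6.43 for DNTT.

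The lines ran in the same order for RAG1, RAG2 and DNTT, with REH highest, then NALM6, RS4;11 and SEM. This order was found in 5.79% of all genes, in 310 of the 3540 genes that spanned 2-fold or more, and in none of the other 7 members. With 1 array per line there is no spread within a line, so that the gaps between neighbouring lines have no error of their own. The smallest of these gaps for the 3 genes was 0.72, between RS4;11 and NALM6 in RAG1. The median span of all genes over the 4 lines was 0.38. That median is no measure of error, since 8118 of the 18377 genes were dim, below 6.75 in every line.

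Sequences of the RefSeq start regions (GRCh38.p14) are shown for the pair of genes with the largest spans, to set their base composition beside that of the end-joining genes. RAG2 (chr11:36598237-36598486, minus strand) and DNTT (chr10:96304184-96304433, plus strand) are printed as the 250 bases before the annotated start, with the motif CANNTG, the E-box core, in capitals.
RAG2: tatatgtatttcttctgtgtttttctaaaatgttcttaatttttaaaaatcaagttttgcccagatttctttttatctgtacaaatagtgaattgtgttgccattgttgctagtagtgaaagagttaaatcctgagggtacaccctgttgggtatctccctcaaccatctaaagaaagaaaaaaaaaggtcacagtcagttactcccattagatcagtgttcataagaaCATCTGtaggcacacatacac
DNTT: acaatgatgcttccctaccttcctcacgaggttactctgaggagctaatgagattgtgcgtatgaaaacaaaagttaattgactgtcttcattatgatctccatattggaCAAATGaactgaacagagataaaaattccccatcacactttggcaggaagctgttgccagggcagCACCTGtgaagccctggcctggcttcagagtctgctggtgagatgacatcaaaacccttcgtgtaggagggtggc
The RAG2 stretch holds 0 CpG and 1 E-box core, and that of DNTT holds 3 CpG and 2 E-box cores.

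Of the ligase complex, LIG4 lay lower and NHEJ1 higher in both translocation lines than in either other line, neither passing the adjusted test, and XRCC4 was nearly level. LIG4, the ligase itself, was at 7.40 in RS4;11 and 7.20 in SEM, against 10.86 in NALM6 and 10.17 in REH. The lines of each group lay within 0.69 of each other, and the groups were 2.78 apart at their nearest. LIG4 was 9.32-fold lower in the translocation lines (difference -3.22, SE 0.29, 95% interval -4.09 to -2.35, limma adjusted p = 0.183).

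NHEJ1, the filament-forming partner of XRCC4, was at 10.15 in RS4;11 and 10.16 in SEM, against 8.96 in NALM6 and 8.94 in REH. Within each group the lines were nearly equal, and every translocation line was above every other line. NHEJ1 was 2.30-fold higher in the translocation lines (difference 1.20, SE 0.08, 95% interval 0.95 to 1.46, limma adjusted p = 0.138, the smallest of the 10).

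XRCC4, the scaffold that stabilises LIG4, was at 9.28 in RS4;11 and 9.41 in SEM, against 9.18 in NALM6 and 9.14 in REH. The groups did not overlap, but the whole span was 0.27, below the median span of all genes, and the difference of 0.18 had a 95% interval from -0.12 to 0.48 (limma adjusted p = 0.689). An absolute difference of 2-fold lies outside that interval.

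Counted without a test, 3 of the 10 genes were separated between the groups by 2-fold or more, against 1.84% of all genes. Without RS4;11, and likewise without NALM6, the count was 5, but separation is easier with fewer lines and the matching share of all genes was not computed. With all lines these were DNTT and LIG4 with the translocation lines lower, which 0.876% of all genes were, and NHEJ1 with these lines higher, against 0.963% of all genes. The median log2 difference over the 10 genes was 0.06, and over all genes 0.01, since genes with large negative differences stood beside genes near 0. The median size of the difference regardless of sign was 0.88 over the 10 genes and 0.15 over all genes.

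**Figure D2:**
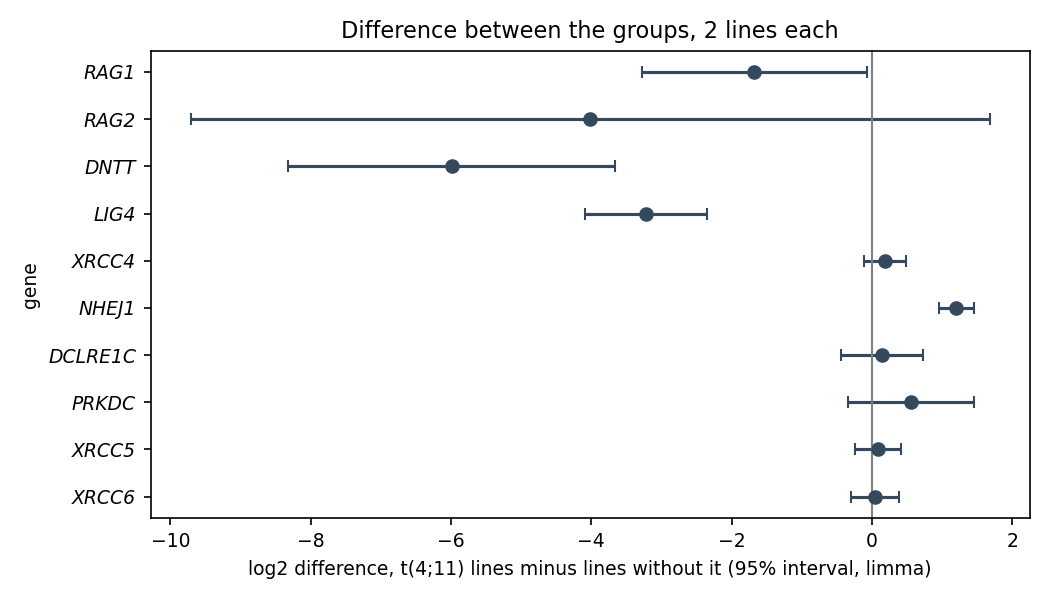
Log2 difference (horizontal axis), translocation lines minus lines without the translocation, for each gene, with the 95% interval from limma as a bar, 2 lines in each group. The bars of RAG1, DNTT and LIG4 lie below 0 and that of NHEJ1 above it, none passing after adjustment over all genes, while the bar of RAG2 reaches from -9.71 to 1.68.

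The kinase, the nuclease and the Ku subunits each spanned less than 2-fold, PRKDC 0.98 and DCLRE1C 0.46 on the log2 scale. PRKDC was at 11.85 in RS4;11 and 11.72 in SEM, against 11.60 in NALM6 and 10.87 in REH, so that REH stood 0.73 below the nearest line. Its difference of 0.55 (95% interval -0.34 to 1.45, limma adjusted p = 0.687) was 0.19 without REH and 0.92 without NALM6. DCLRE1C was at 9.41 in RS4;11 and 9.13 in SEM, against 9.31 in NALM6 and 8.95 in REH, and the groups overlapped. Its difference was 0.14, with a 95% interval from -0.44 to 0.72, and it was -0.0016 without RS4;11, -0.036 without REH and 0.32 without NALM6.

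XRCC5 (Ku80) was at 12.08 in RS4;11 and 12.26 in SEM, against 12.08 in NALM6 and 12.09 in REH. XRCC6 (Ku70) was at 11.32 in RS4;11 and 11.33 in SEM, against 11.39 in NALM6 and 11.18 in REH. The groups overlapped in both genes, and the spans of 0.19 and 0.20 lay below the median span of all genes. The 95% intervals of the group differences ran from -0.25 to 0.41 for XRCC5 and from -0.30 to 0.39 for XRCC6, and the XRCC6 difference was negative after arrays were centred on their medians (-0.0074) or quantile-normalized again (-0.0016). RefSeq names 5 pseudogenes of XRCC6 and 1 of DCLRE1C, and their part in these probe sets was not tested.

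Between single lines, the differences had no replicate and no test. RS4;11 exceeded SEM by 2-fold or more in RAG2 (4.63) and DNTT (1.78), against 2.49% of all genes, and was 2-fold below it in none of the 10 (3.51% of all genes). NALM6 was 2-fold or more below REH in RAG1 (-1.02) and RAG2 (-1.57), against 4.97% of all genes, and 2-fold above it in none (3.65%). SEM was below each other line by 2-fold or more in RAG2 and DNTT, against 0.702% of all genes, and REH was above each other line in RAG1 and RAG2, against 2.19%. LIG4 and NHEJ1 differed by less than 2-fold within each group.

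Of the end-joining accessories, 10 were analysed. Their difference passed in 0 of 10 after adjustment, and in 1, PAXX, at a limma unadjusted p under 0.05 (9.39% of all genes). PAXX, a further XRCC4-like factor, was at 8.97 in RS4;11 and 9.05 in SEM, against 8.67 in NALM6 and 8.75 in REH. The spans reached 2-fold in 3 of 10 (POLM, POLL and APLF), against 19.3% of all genes. POLM, the polymerase most like the terminal transferase, was at 7.49 in RS4;11 and 7.02 in SEM, against 9.58 in NALM6 and 8.12 in REH, with a difference of -1.59 (SE 0.60, limma adjusted p = 0.579). POLL, a gap-filling polymerase of the same family, was at 7.17 in RS4;11 and 7.03 in SEM, against 7.33 in NALM6 and 5.33 in REH, where it alone was low. APLF, a scaffold that binds Ku, was at 7.09 in RS4;11 and 7.25 in SEM, against 6.86 in NALM6 and 8.28 in REH, where it was highest. The remaining accessories (APTX, ERCC6L2, CYREN, TDP2, DCLRE1A and DCLRE1B) spanned at most 0.87.

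Break signalling genes (14 measured) and alternative end-joining genes (8 measured) included none that spanned 2-fold, and homologous recombination genes (13 measured) included 1, RAD51C, at 9.29 in RS4;11 and 9.68 in SEM, against 8.41 in NALM6 and 9.72 in REH. The median group differences of these lists were 0.03, 0.02 and -0.03. At a limma unadjusted p under 0.05 the lists held 2, 1 and 2 genes, against 9.39% of all genes. Of 16 proliferation genes, 0 spanned 2-fold and 2 had a limma unadjusted p under 0.05, and their median difference was -0.03. Among cofactors of the recombinase, HMGB2, which bends DNA for RAG binding, spanned 0.17 and the ubiquitin ligase subunit gene SKP2, whose product directs RAG2 turnover, 0.14. DCAF1, a ligase subunit that binds RAG1, was at 10.72 in RS4;11 and 10.69 in SEM, against 10.65 in NALM6 and 9.54 in REH. No gene of these lists passed after adjustment.

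**Figure D3:**
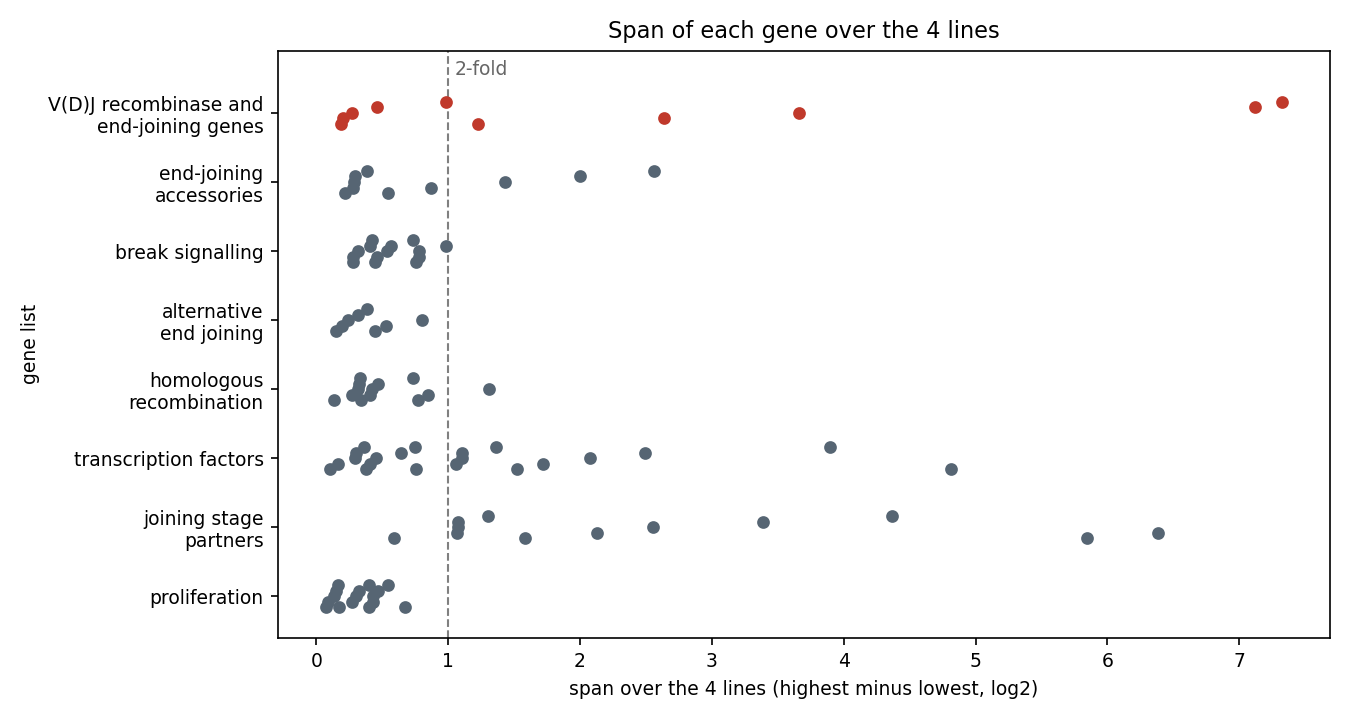
Span of each gene over the 4 lines (highest minus lowest log2 value, horizontal axis) for the 10 recombinase and end-joining genes (red) and 7 other lists (grey), each point 1 gene, offset vertically for legibility; the dashed line marks 2-fold. RAG1, RAG2, DNTT, LIG4 and NHEJ1 lie to the right of the line, and no break signalling, alternative end-joining or proliferation gene does.

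Transcription factors known, mostly from mouse, to act on RAG or DNTT were examined next. Of 21 measured, 10 spanned 2-fold or more, against 19.3% of all genes, and 0 passed the group test. At a limma unadjusted p under 0.05 there was 1, RUNX1, against 9.39% of all genes. RUNX1 was at 11.98 in RS4;11 and 12.03 in SEM, against 10.97 in NALM6 and 11.24 in REH. It was thus higher in the translocation lines, opposite to RAG1, RAG2 and DNTT. FOXO1, a forkhead activator of RAG transcription in mouse B-cell precursors, was at 8.77 in RS4;11 and 7.60 in SEM, against 9.24 in NALM6 and 10.09 in REH. ETS1, an ETS-family activator, was at 9.44 in RS4;11 and 7.93 in SEM, against 9.88 in NALM6 and 10.00 in REH. These were the 2 factors of the 21 with the line order of RAG1, RAG2 and DNTT, against 5.79% of all genes. Among the 3540 genes that spanned 2-fold or more, as these 2 did, 310 had it. NALM6 and REH were nearly level in ETS1 (9.88 and 10.00), so that its order is weakly based. The group differences of FOXO1 and ETS1 were -1.48 (95% interval -3.18 to 0.22) and -1.26 (-3.04 to 0.52), with limma adjusted p-values of 0.582 and 0.644.

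The factors with the widest spans did not share that order. IKZF3 (Aiolos) was at 6.06 in RS4;11 and 5.55 in SEM, against 10.02 in NALM6 and 5.21 in REH, high in NALM6 alone. SATB1, a chromatin organiser of lymphoid cells, was at 8.32 in RS4;11 and 12.10 in SEM, against 8.20 in NALM6 and 11.29 in REH, which parts the lines of each group. PAX5 spanned 0.29.

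Of the 12 genes of the same differentiation stage, 11 spanned 2-fold or more, against 19.3% of all genes. The order of the recombinase genes was found in 4 (IL7R, CRLF2, CD79B and BLNK), against 5.79% of all genes. Among the 3540 genes that spanned 2-fold or more, as these 4 did, 310 had it. RS4;11 and NALM6 were nearly level in IL7R (12.01 and 12.10) and in CRLF2 (4.65 and 4.69), which was also dim there, so that their order is weakly based. BLNK, the adaptor of pre-B receptor signalling, was at 7.15 in RS4;11 and 5.35 in SEM, against 10.66 in NALM6 and 11.74 in REH. CD79B, a signalling chain of the receptor, was at 9.99 in RS4;11 and 7.63 in SEM, against 10.87 in NALM6 and 11.02 in REH. VPREB1, a surrogate light chain gene, went otherwise, at 11.35 in RS4;11 and 7.57 in SEM, against 10.86 in NALM6 and 5.51 in REH. So did the receptor kinase gene FLT3, at 11.34 in RS4;11 and 12.82 in SEM, against 8.46 in NALM6 and 10.35 in REH. The line lowest in RAG2 and DNTT, SEM, also had CEBPA, a myeloid transcription factor gene, at 8.43, against 5.24 to 5.91 in the other lines. MPO, which defines myeloid cells, was at 4.78 in RS4;11 and 4.79 in SEM, against 4.75 in NALM6 and 7.57 in REH, the line highest in RAG1, RAG2 and DNTT. LYZ, the lysozyme gene, was at 8.27 in RS4;11 and 8.50 in SEM, against 9.65 in NALM6 and 5.80 in REH. Of the 7 myeloid markers 2 were 2-fold or more higher in SEM than in each other line (CEBPA and CSF1R), as were 301 of all 18377 genes. CSF1R was at 5.88 in RS4;11 and 7.69 in SEM, against 5.53 in NALM6 and 5.66 in REH. The median of the 7 myeloid markers was 5.28 in RS4;11 and 5.10 in SEM, against 5.08 in NALM6 and 5.66 in REH. The part of such markers in the recombinase levels was not tested.

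**Figure D4:**
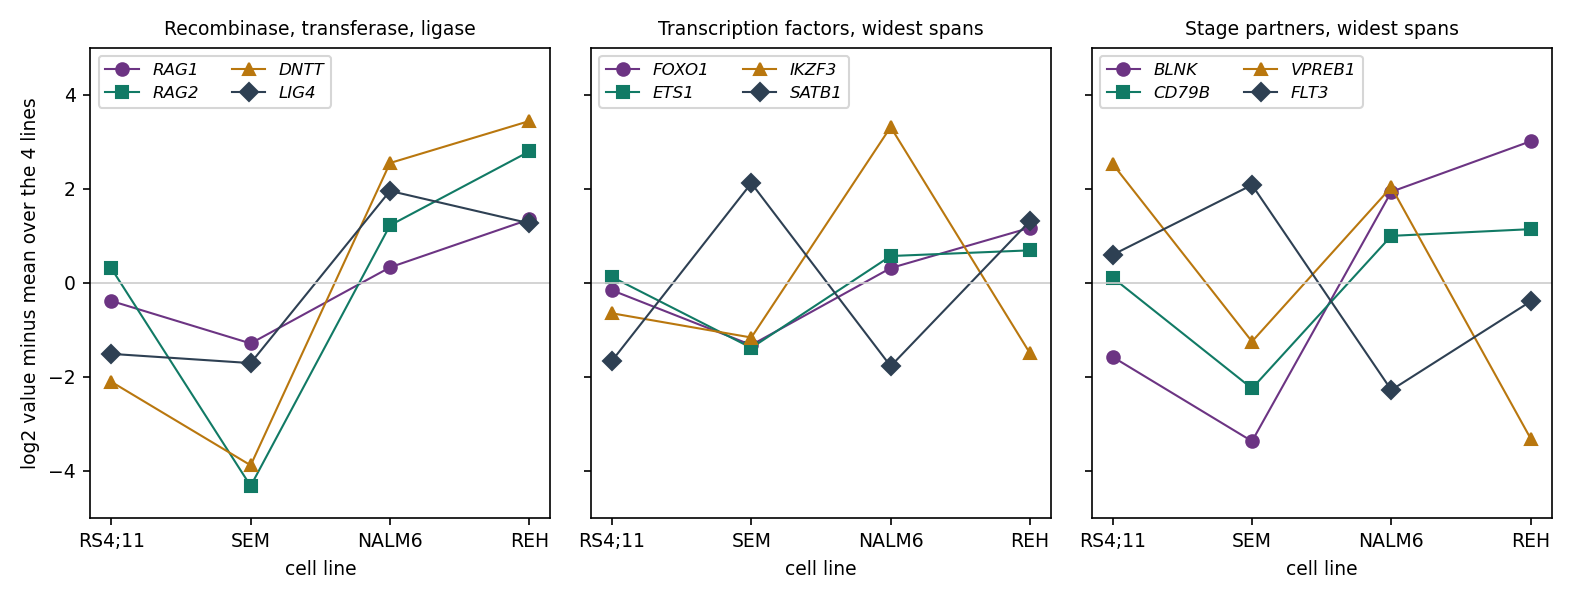
Log2 value minus the gene's mean over the 4 lines (vertical axis) by line (horizontal axis), for RAG1, RAG2, DNTT and LIG4 (left), the 4 transcription factors with the widest spans (middle) and the 4 stage partners with the widest spans (right); segments join the points of 1 gene. FOXO1, ETS1, BLNK and CD79B run in the line order of RAG1, RAG2 and DNTT, whereas IKZF3, SATB1, VPREB1 and FLT3 do not.

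Likeness of pattern was measured as the root mean square distance over the 4 lines between log2 values from which each gene's own mean had been subtracted, a description with 4 points per gene. Nearest to RAG1 were POMT1 (0.07), DAGLB (0.11) and ZNF75A (0.15). FOXO1 came 4th of all genes, also at a distance of 0.15. It was 79th from RAG2 (1.78), 167th from DNTT (2.26) and 245th from LIG4 (1.08). FOXO1 was singled out after its values were seen. The distance also depends on the size of the changes, and RAG2 and DNTT were 17783rd and 18075th from RAG1. Nearest to RAG2 were CD24 (0.68), NRN1 (0.70) and NRIP1 (0.79), with DNTT 31st. Nearest to DNTT were KDM5B (0.42), BEST3 (0.51) and BLNK (0.52). Nearest to LIG4 were MTSS2 (0.17), NYNRIN (0.17) and RASD1 (0.21). For these 4 genes, no other member was among the 3 nearest.

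RAG1 and RAG2 are adjacent on chromosome 11. TRAF6, on the RAG1 side, was at 9.33 in RS4;11 and 9.23 in SEM, against 9.32 in NALM6 and 9.38 in REH, a span of 0.15. PRR5L was at 5.49 in RS4;11 and 5.25 in SEM, against 5.33 in NALM6 and 5.96 in REH. Both were highest in REH and lowest in SEM, as RAG1 and RAG2 were, but with RS4;11 above NALM6. IFTAP, which overlaps RAG2 in RefSeq, was at 5.84 in RS4;11 and 6.83 in SEM, against 5.82 in NALM6 and 6.65 in REH. Its highest line, SEM, was the lowest in RAG2. COMMD9 spanned 0.31 and was higher in both translocation lines. LDLRAD3, farther away, was at 9.10 in RS4;11 and 10.25 in SEM, against 11.61 in NALM6 and 6.26 in REH, lowest in the line where both RAG genes were highest.

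In RefSeq, 8 of the 10 genes had start windows of 300 bases (250 before and 50 after the start), and the outermost start of each gene was used. The window of RAG2 had 0 CpG and 36.7% GC, and that of DNTT 3 CpG and 49.3% GC. The other 6 had 11 to 35 CpG, against a median of 13 over 27305 genes. RAG1 had 32 CpG and 72.3% GC, and LIG4 had 35 CpG and the same share of GC. The RAG1 window (chr11:36510103-36510402) is at its 1 listed start, 81 bases from that of TRAF6. It lies far from the RAG2 window (chr11:36598187-36598486), and no start of RAG1 nearer to RAG2 was examined. The RAG1 counts thus describe that outer start alone. LIG4 has 5 annotated starts, whose windows held 16 to 35 CpG. E-box cores (CANNTG, its own reverse complement in form) were in 5 of the 8 windows, against 69.0% of all genes. GGGAA, which an Ikaros-family or ETS site can contain, was in 5 of 8 (64.8% of all genes). CCGGAA, an ETS core, was in LIG4 and XRCC4 (17.6%). The forkhead motif GTAAACA was in 0 of 8 (3.44%), TATAAA in 1 of 8 (12.0%), CCAAT in 4 of 8 (35.7%) and GGGCGG in 5 of 8 (44.5%). Both strands were searched, and no motif contains another.

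The window of NHEJ1 is shown as the contrast in composition, since it was the only member separated by 2-fold or more with the translocation lines higher. Its 250 bases before the start (chr2:219160816-219161065, minus strand, GRCh38.p14) hold 14 CpG and 0 E-box cores. For LIG4, which has its start 43 bases from that of ABHD13 on the other strand, the 42 bases between the starts (chr13:108218350-108218391, shown on the LIG4 strand) are printed with their 5 CpG in capitals.
NHEJ1: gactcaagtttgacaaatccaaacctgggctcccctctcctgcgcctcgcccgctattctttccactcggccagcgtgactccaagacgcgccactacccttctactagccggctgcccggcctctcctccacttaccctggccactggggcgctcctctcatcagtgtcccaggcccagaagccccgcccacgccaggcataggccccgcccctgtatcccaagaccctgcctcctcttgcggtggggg
LIG4: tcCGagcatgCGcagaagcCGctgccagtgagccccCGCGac
The annotated starts of LIG4 and ABHD13 flank the LIG4 stretch.

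For 4 of the 8 genes, the start of a neighbour transcribed in the opposite direction, away from the member, lay within 1000 bases. These neighbours were looked up after the members' values were seen, and the share of all genes with such a neighbour was not computed. ABHD13, a hydrolase-like gene beside LIG4, was at 9.66 in RS4;11 and 9.09 in SEM, against 10.14 in NALM6 and 10.15 in REH. It was lower in both translocation lines, as LIG4 was, with a difference of -0.78 (SE 0.24, limma adjusted p = 0.504) against -3.22 for LIG4. RAG1, at its RefSeq start, begins 81 bases from the start of TRAF6, and TRAF6 had a difference of -0.07 (SE 0.10). TMEM167A beside XRCC4 had a difference of 0.32 (SE 0.29), with SEM highest at 10.01. DESI1 beside XRCC6 had a difference of -0.69 (SE 0.20, limma adjusted p = 0.493) while XRCC6 had 0.04.

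**Figure D5:**
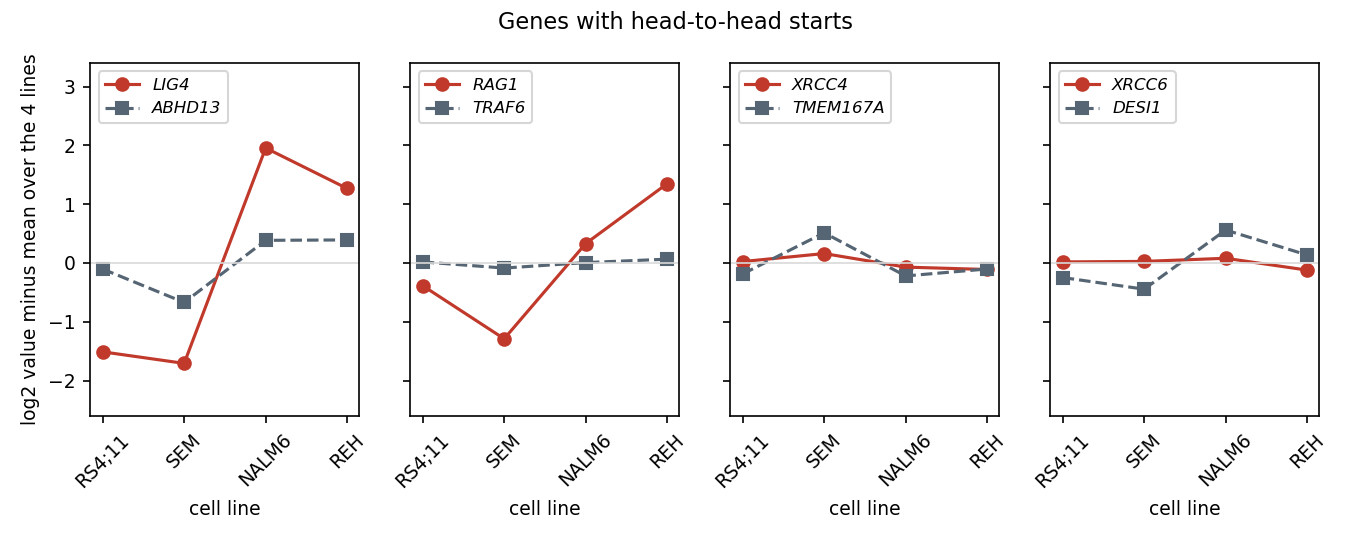
Log2 value minus the gene's mean over the 4 lines (vertical axis) by line (horizontal axis) for 4 members (red, solid) and their neighbours (grey, dashed). Each neighbour starts within 1000 bases of the member and is transcribed away from it. Segments join the points of 1 gene. LIG4 spans 3.66 and ABHD13 1.06 with the translocation lines lower in both, whereas TRAF6 is nearly flat beside RAG1.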

How the data were processed

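Total RNA of 4 lines was labelled with biotin as whole-transcript sense target for Affymetrix arrays, per the labels' protocols. The deposited log2 values were made by the authors with RMA (background correction, quantile normalization, 1 summary per probe set) and Partek, per the submitters' processing notes. The sources used here give neither versions nor a genome build, and the log2 scale was inferred from the values (3.44 to 14.3). Without detection calls, which RMA does not make, signal over background is not known, and quantile normalization levels the arrays' totals.

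Of 32968 probe sets, 19310 had 1 gene symbol in the platform annotation, 1752 several and 11906 none listed. RefSeq (GRCh38.p14) matched 19279 of the 19310 by Entrez ID and updated 0 symbols. The probe set of highest mean stood for each gene, which gave 18377 genes. Groups were compared with limma 3.58.1 (lmFit, eBayes) in R 4.3.3 without covariates, two-sided, with Benjamini-Hochberg adjustment over all genes at 0.05. Degrees of freedom were 2 (residual) and 1.34 (prior), and the typical (median) SE of a difference was 0.14. P-values measure the spread between lines. On simulated data with 18377 genes, 200 of them changed, limma recovered 3.4% of 2-fold changes, 67% of 4-fold, 78.8% of 8-fold and 93.8% of 64-fold changes. It also called 7.5 unchanged genes per simulation. In the real data only 4 genes passed, and the adjustment is stricter when fewer genes pass. The changed genes were drawn at random from all genes, each with its own fitted spread. RAG1, DNTT and RAG2 had SEs of 0.53, 0.77 and 1.89, above the median SE of 0.14. These rates can therefore overstate the recovery in the real data, and they do not give the recovery for genes with such SEs.

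The members and lists were chosen with earlier results of these data known. Named were the 10 members, all accessories, cofactors and locus neighbours, up to 4 genes per other list with the widest spans of 2-fold or more, and the 3 nearest patterns. IL7R, CRLF2, RUNX1, CEBPA, CSF1R, LYZ, MPO, PAX5, CD22 and the neighbours with starts within 1000 bases were added after their values were seen. HMGB1 and EBF1 had no probe set of their own, some listed genes are not reported here, and planned comparisons of protein sequences were not made. Plots were drawn with matplotlib 3.10.9 and tables made with pandas 2.3.3 in Python 3.11.15.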

Additional observations from a re-analysis of the deposited data

How the results depend on the processing

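No member passed limma's adjusted threshold under repeated quantile normalization, centring, the mean of probe sets, all probe sets, removal of dim genes, an intensity trend, robust eBayes, no moderation, an adjusted p under 0.1 or without any 1 line, and 4 had an unadjusted p under 0.05. The count separated by 2-fold or more was 3, and 7 at any separation. Leaving out each line gave 3 to 5, with 5 without RS4;11 and without NALM6, fewer lines being compared. The median difference over the members was 0.06, and from -0.047 (without REH) to 0.11 (without NALM6). Signs turned for members with differences near 0: XRCC6 (-0.0016 after repeated quantile normalization, -0.0074 with centred arrays, and -0.058 to 0.14 without each line), XRCC5 (-0.0091 to 0.18 without each line, negative without SEM) and DCLRE1C (-0.036 to 0.32, negative without RS4;11 and without REH); the cause was not tested. RAG1 ranged from -2.19 to -1.17, RAG2 from -6.33 to -1.70, DNTT from -6.88 to -5.10, LIG4 from -3.56 to -2.88 and NHEJ1 from 1.19 to 1.21 without each line. No paired analysis was made, because the 4 lines are separate cultures and the labels name no pairs among them. Without a detection call, dim values such as DNTT in SEM bound folds only from below.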
